A study of Arabidopsis thaliana with 8 samples.

Results

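The circadian clock of *Arabidopsis thaliana* was followed through 10 of its central genes, taken by identifier from the 34133 genes that the deposited tables list. They are the MYB-like transcription factors *CCA1*, *LHY* and *RVE8*, the pseudo-response regulators *PRR9*, *PRR7*, *PRR5* and *TOC1*, the clock protein gene *GI*, and *ELF4* and *LUX*, which encode parts of the evening complex. RNA was sequenced from entire rosettes of 3-week-old Col-0 plants in 8 libraries, 2 for each of the groups *ros1* IM, *ros1* control, WT IM and WT control, with 2 plants in each library. IM stands for imazethapyr, a herbicide that blocks acetolactate synthase, applied at 10.6 g per ha with 0.5% v/v of the adjuvant Dash. All plants grew under 16 h light and 8 h dark, at 21 °C by day and 16 °C by night, and treated and untreated plants were collected 48 h after application. ROS1 is a glycosylase that takes methylated cytosine out of DNA, and the *ros1* line used here is 1 hypomorphic T-DNA line that still makes some transcript. The control libraries are labelled mock, and their plants are called untreated here. Whether control plants were sprayed with Dash is not stated, so herbicide and adjuvant cannot be told apart.

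The plant clock is a loop of repressors whose transcripts follow each other through the day. CCA1 and LHY peak around dawn and repress genes of the evening, the PRR proteins follow in a series from morning to dusk and repress *CCA1* and *LHY*, and the evening complex of ELF3, ELF4 and LUX acts at night on *PRR9* and other genes. RVE8 is a relative of CCA1 that activates evening genes together with LNK coactivators, and GI acts late in the day, stabilising the F-box protein ZTL and promoting flowering in long days. The hour of harvest is not stated and there was 1 harvest. A level that differs between groups may therefore reflect another phase or another amplitude of a rhythm, and these cannot be told apart.

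Each level is given in FPKM (fragments of a gene, scaled by transcript length and by the mapped fragments of the library), which the authors pooled over the 2 libraries of a group. The tables hold no value per library and no read totals. No standard deviation, interval or test can therefore be given for any difference here, and none has a replicate check. Differences are given as the log2 ratio of FPKM + 0.1 between groups. A gene was counted as higher or lower where this ratio passed 2-fold (a log2 ratio of at least 1 in size) and its FPKM was at least 1 in either group. A count of clock genes is set beside the share of all genes that passed the same threshold.

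*ROS1* (AT2G36490) had an FPKM of 4.08 in *ros1* IM, 19.0 in *ros1* control, 16.7 in WT IM and 25.0 in WT control. With IM, its level in *ros1* was 4.02-fold below that in WT. Without IM, the gap of 1.32-fold was within the 2-fold threshold, and *ros1* control stood above WT IM. The untreated plants thus show no knock-down past 2-fold, and "*ros1* control" stands for the libraries labelled *ros1* mock. The leaf markers *RBCS1A*, *RBCS3B*, *LHCB1.3*, *CA1* and *GLK2* were all detected in every group, and their summed FPKM was 1347 in *ros1* IM, 53032 in *ros1* control, 11316 in WT IM and 56692 in WT control. Among 5 root markers, *EXPA7* and *RHD6* were listed at 0 in the 3 groups with a value, and *PYK10* had 7.74 in *ros1* IM, 67.2 in *ros1* control, 15.7 in WT IM and 50.0 in WT control. The 5 flower markers summed to 1.17 in *ros1* control, 1.11 in WT IM and 1.19 in WT control. In *ros1* IM a value exists for *SEP3* alone, at 1.65 against 0.540 in WT IM, 2.73-fold higher and above the sum of all 5 in each of the other groups. The 7 reference genes summed to between 3408 and 4542 in the 4 groups, though *ACT2* was lower with IM in both genotypes and *UBQ10* higher. *UBQ10* was also lower in *ros1* than in WT, by 2.85-fold with IM and by 4.37-fold without it. Leaf markers were lower with IM, by more in *ros1*, and the part of this in the clock gene values was not tested. Fewer cells of a type and less RNA per cell cannot be told apart in such bulk samples.

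The 10 genes spanned a wide range of levels, and their order was similar in the 4 groups. *ELF4* was the most abundant, above 95.6% of all genes in *ros1* control and 96.1% in WT control. *TOC1* and *LUX* came next, and *PRR9*, *CCA1* and *LHY* were lowest in each group. In WT control, *CCA1* at 0.447 stood above 43.9% of genes and *PRR9* at 0.0371 above 36.6%. The summed FPKM of *TOC1*, *ELF4* and *LUX* was 192 in *ros1* IM, 201 in *ros1* control, 237 in WT IM and 192 in WT control. That of *CCA1* and *LHY* was 3.66 in *ros1* IM, 0.621 in *ros1* control, 2.18 in WT IM and 1.26 in WT control. Genes of the evening thus had 52.5 times the summed level of the dawn pair in *ros1* IM, 324 times in *ros1* control, 109 times in WT IM and 153 times in WT control. The evening sum, of which *ELF4* is the largest part, varied far less between groups than the dawn sum, which is of genes at low levels. Shifts of single genes can cancel in such a sum. In *ros1* control, *TOC1* was higher and *ELF4* lower than in WT control.

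**Figure D1:**
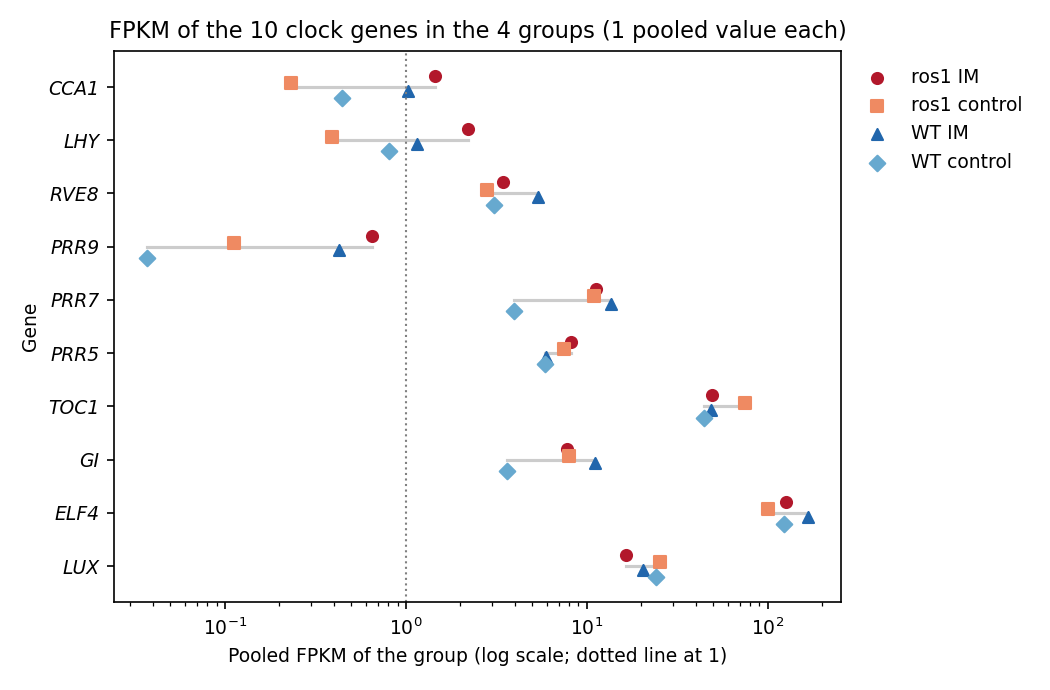
FPKM of the 10 clock genes on a log axis, with 1 pooled value for each of *ros1* IM, *ros1* control, WT IM and WT control and a grey line over the range. *ELF4*, *TOC1* and *LUX* sit at 16.6 or more in every group and *PRR9* below 1 in every group, while *CCA1* and *LHY* have their highest value in *ros1* IM and their lowest in *ros1* control.

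The promoters of these genes hold short sites that clock proteins are known to bind, and they are shown because the genes below are ordered by these regulators. The 500 bases before the start of each RefSeq gene (TAIR10.1) were searched on both strands for the evening element AAAATATCT and the CCA1-binding site AAAAATCT, both bound by CCA1 and its relatives, for the G-box CACGTG, bound by bZIP and bHLH factors, and for the LUX-binding sites GATACG and GATTCG. None of these words contains another. Sequences are given 5′ to 3′ on the strand of the gene, with the match in capitals. A match on the other strand therefore reads as its reverse complement. *CCA1*, *LHY* and *PRR7* each have 1 G-box, and that of *CCA1* and that of *LHY* are followed by the same 4 bases, tcga.
*CCA1* G-box, chr2:19245388-19245413, + strand: gtgtatcagaCACGTGtcgacaaact
*LHY* G-box, chr1:37936-37961, - strand: acaatatcacCACGTGtcgatctgcg
*PRR7* G-box, chr5:642216-642241, - strand: cccaccattaCACGTGtcagttcaaa

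*PRR9* has 2 G-boxes, a CCA1-binding site and a LUX-binding site, *TOC1* has an evening element and a LUX-binding site, and *LUX* has an evening element, a G-box and a LUX-binding site.
*PRR9* CCA1-binding site, chr2:19232281-19232308, + strand: gctgaaaaaaAAAAATCTaccttttaga
*PRR9* LUX-binding site, chr2:19232467-19232492, + strand: ccacctccacCGAATCagccgcgata
*TOC1* evening element, chr5:24674802-24674830, + strand: aaatatcatgAGATATTTTctccaagatg
*LUX* evening element, chr3:17182979-17183007, + strand: tagaagatctAAAATATCTagctaactcg

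*PRR5* holds 2 evening elements and a CCA1-binding site in its window, but all 3 lie inside the longer *PRR5* gene of the authors' files. *LHY* also has a CCA1-binding site and *ELF4* a LUX-binding site. *GI* and *RVE8* have no match to any of these words in the window. In all, 5 of the 10 genes had a G-box, against 9.35% of 27443 promoters of protein-coding genes. The evening element was in 3 of the 10 and in 4.44% of all promoters, the CCA1-binding site in 3 and in 12.5%, and a LUX-binding site in 4 and in 22.6%. A match describes the letters and shows no binding.

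*CCA1* (AT2G46830, chromosome 2, 19245672 to 19248914 in TAIR10), a dawn repressor, had an FPKM of 1.44 in *ros1* IM, 0.233 in *ros1* control, 1.03 in WT IM and 0.447 in WT control. It was highest in both treated groups. With IM, the log2 ratio was 2.22 in *ros1* and 1.05 in WT, or 4.64-fold and 2.07-fold on the scale of FPKM + 0.1. *LHY* (AT1G01060, chromosome 1, 33379 to 37871), the partner and close relative of *CCA1*, had an FPKM of 2.21 in *ros1* IM, 0.389 in *ros1* control, 1.15 in WT IM and 0.809 in WT control. Its order over the groups was that of *CCA1*. The log2 ratio with IM was 2.24 in *ros1*, 4.73-fold, and 0.45 in WT, which did not pass 2-fold. Without herbicide both genes were lower in *ros1* than in WT, at log2 ratios of -0.72 for *CCA1* and -0.90 for *LHY*. Neither reached an FPKM of 1 in the untreated groups, so that comparison stays outside the count. These levels are low, and a pseudocount of 1 in place of 0.1 reduced the log2 ratio in *ros1* to 0.99 for *CCA1* and 1.21 for *LHY*. In WT it reduced that of *CCA1* to 0.49, so that neither call of *CCA1* held.

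*RVE8* (AT3G09600, chromosome 3, 2946406 to 2948995), the activator, had an FPKM of 3.43 in *ros1* IM, 2.80 in *ros1* control, 5.36 in WT IM and 3.08 in WT control. It was highest in WT IM and close to level in the other 3 groups. Its log2 ratio with IM was 0.28 in *ros1* and 0.78 in WT, neither past 2-fold. In WT, centring on the median of the reference genes moved that ratio to 1.12, past the threshold.

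*PRR9* (AT2G46790, chromosome 2, 19232649 to 19235087), the morning member of the PRR series, had an FPKM of 0.648 in *ros1* IM, 0.113 in *ros1* control, 0.426 in WT IM and 0.0371 in WT control. Both treated groups were above both untreated ones. The log2 ratio with IM was 1.81 in *ros1* and 1.94 in WT, but the gene was below an FPKM of 1 throughout and is in no count. *PRR9* lies on the same chromosome as *CCA1*, 10.6 kb before it, and both are on the + strand.

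*PRR7* (AT5G02810, chromosome 5, 637897 to 641977), which acts after *PRR9* in the day, had an FPKM of 11.2 in *ros1* IM, 10.9 in *ros1* control, 13.6 in WT IM and 3.98 in WT control. WT control stood apart below the other 3 groups. The log2 ratio was 1.75 for WT IM against WT control, 0.03 for *ros1* IM against *ros1* control, 1.44 for *ros1* control against WT control and -0.28 for *ros1* IM against WT IM. The ratios of WT IM and of *ros1* control share the WT control value, so they are not separate evidence.

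*PRR5* (AT5G24470, chromosome 5, 8355951 to 8358873), the afternoon member, had an FPKM of 8.18 in *ros1* IM, 7.50 in *ros1* control, 5.94 in WT IM and 5.88 in WT control. It varied least of the 10 genes, 1.39-fold between the highest and lowest group. Its level was higher in both *ros1* groups than in both WT groups, at log2 ratios of 0.46 with IM and 0.35 without.

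*TOC1* (AT5G61380, chromosome 5, 24675064 to 24678550), the evening member and a repressor of *CCA1* and *LHY*, had an FPKM of 49.3 in *ros1* IM, 75.2 in *ros1* control, 48.8 in WT IM and 44.6 in WT control. Only *ros1* control stood above the rest. Its log2 ratio was -0.61 for *ros1* IM against *ros1* control, 0.13 for WT IM against WT control and 0.75 for *ros1* control against WT control, none past 2-fold. *TOC1* was highest in the group where *CCA1* was lowest. The other groups did not keep this opposite order, since *TOC1* was lowest in WT control, where *CCA1* was below both treated groups. The ratio of *TOC1* to *CCA1* was 34.1 in *ros1* IM, 323 in *ros1* control, 47.3 in WT IM and 99.9 in WT control. These are ratios of FPKM without the added 0.1, and that of *ros1* control rests on *CCA1* at 0.233.

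*GI* (AT1G22770, chromosome 1, 8061844 to 8067716) had an FPKM of 7.81 in *ros1* IM, 7.96 in *ros1* control, 11.1 in WT IM and 3.60 in WT control. As with *PRR7*, WT control was lowest and WT IM highest. The log2 ratio was 1.60 for WT IM against WT control, -0.03 for *ros1* IM against *ros1* control, 1.12 for *ros1* control against WT control and -0.50 for *ros1* IM against WT IM. Again 2 of these ratios share WT control.

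*ELF4* (AT2G40080, chromosome 2, 16734294 to 16734912) had an FPKM of 126 in *ros1* IM, 101 in *ros1* control, 168 in WT IM and 123 in WT control. Within each genotype the treated group was above the untreated one, at log2 ratios of 0.33 in *ros1* and 0.44 in WT. *LUX* (AT3G46640, chromosome 3, 17183070 to 17185218), its partner in the evening complex, had an FPKM of 16.6 in *ros1* IM, 25.4 in *ros1* control, 20.4 in WT IM and 24.1 in WT control. It went the other way, with the treated group lower in each genotype, at log2 ratios of -0.61 in *ros1* and -0.24 in WT. Centring on the median of the reference genes moved the WT ratio of *LUX* to 0.11, so its direction in WT depends on that choice. The level of *ELF4* over that of *LUX* was 7.61 in *ros1* IM, 3.96 in *ros1* control, 8.23 in WT IM and 5.12 in WT control.

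**Figure D2:**
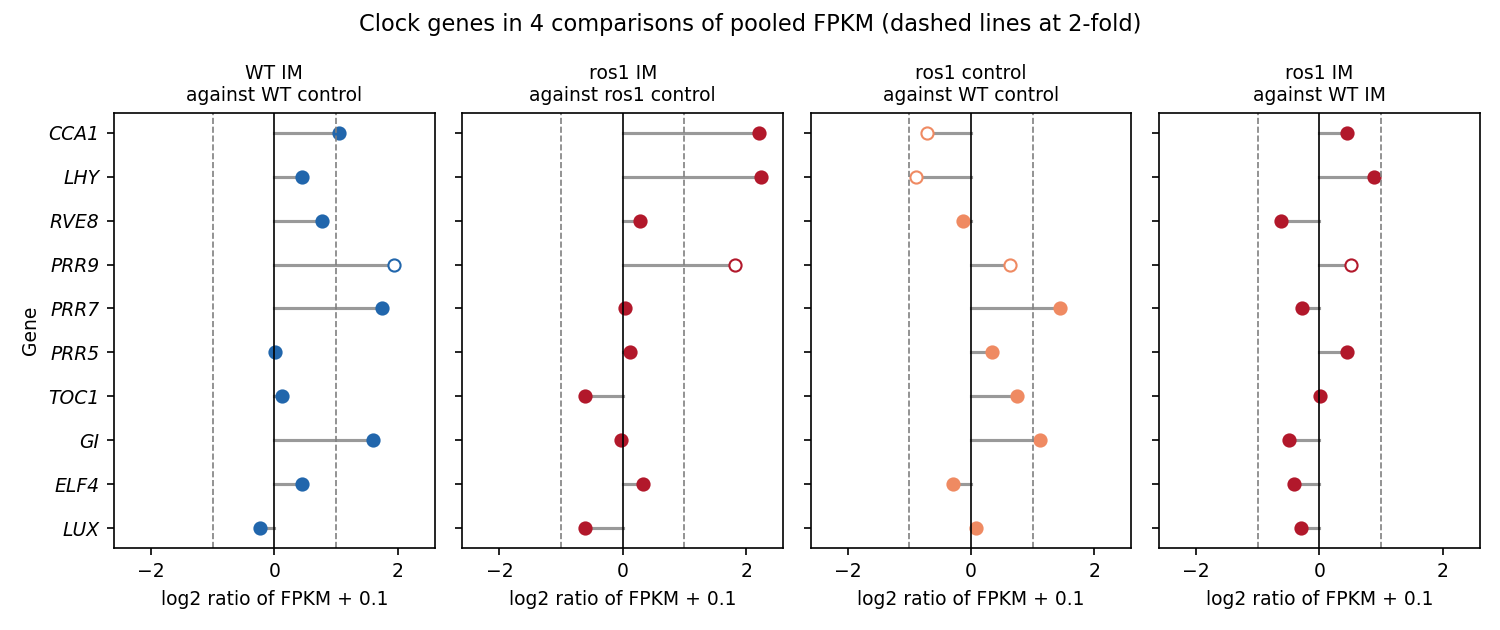
Log2 ratio of FPKM + 0.1 of each clock gene in 4 comparisons, with the first-named group over the second. Open circles are genes below an FPKM of 1 in both groups, and dashed lines mark 2-fold. *CCA1* and *LHY* pass 2-fold in *ros1* IM against *ros1* control, *PRR7* and *GI* in both comparisons with WT control, and no gene does in *ros1* IM against WT IM.

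For WT IM against WT control, the question was how the clock genes stood 48 h after the herbicide. *CCA1*, *PRR7* and *GI* were higher and none was lower, out of 10 genes of which 9 had an FPKM of at least 1 in either group. Of 18829 genes, 14.4% were higher and 18.4% lower at the same threshold. These are among the 32920 genes with a WT IM value, out of 34133 with a WT control value. The median log2 ratio was 0.62 over the 10 genes and 0.01 over the 18829. The 10 include *PRR9*, which is below the minimum that the 18829 genes passed. Over the 9 clock genes that passed it, the middle value was 0.45, that of *LHY*. With a pseudocount of 1, or with a minimum FPKM of 1 in each of both groups, *CCA1* dropped out and 2 genes were higher. Centring on the median of the 7 reference genes, which lay at -0.34, gave 4 clock genes higher and 0 lower, and 22.7% of all genes higher and 13.0% lower.

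For *ros1* IM against *ros1* control, *CCA1* and *LHY* were higher and none was lower, again with *PRR9* below the minimum. Among the 16403 genes compared, 20.5% were higher and 26.4% lower. Those genes are not all genes, because *ros1* IM values exist only for the 17284 genes that the authors listed as changed in at least 1 comparison with that group, so the shares are those of a chosen set. The median log2 ratio was 0.20 over the 10 genes, *PRR9* included, and 0.12 over the genes compared, which all passed the minimum. Without *PRR9*, the middle value of the clock genes was also 0.12, that of *PRR5*. Relative to the median of 0.12 over the genes compared, *LHY* stood at 2.13, and *CCA1* just below it. Both counts depend on the low values in *ros1* control, since neither gene had an FPKM of 1 there.

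For *ros1* control against WT control, *PRR7* and *GI* were higher and none of the 7 genes above the minimum was lower. Of 18799 genes, 6.3% were higher and 10.3% lower. The median log2 ratio was 0.21 over the 10 genes, of which some were below the minimum, and 0.01 over the 18799. Over the 7 clock genes above the minimum, the middle value was 0.35, that of *PRR5*. For *ros1* IM against WT IM, 0 clock genes were higher and 0 lower, while 13.1% and 22.6% of the 16329 genes compared were, with the same limit to listed genes. *LHY* came nearest, at 0.89, and *RVE8* was the lowest, at -0.63.

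**Figure D3:**
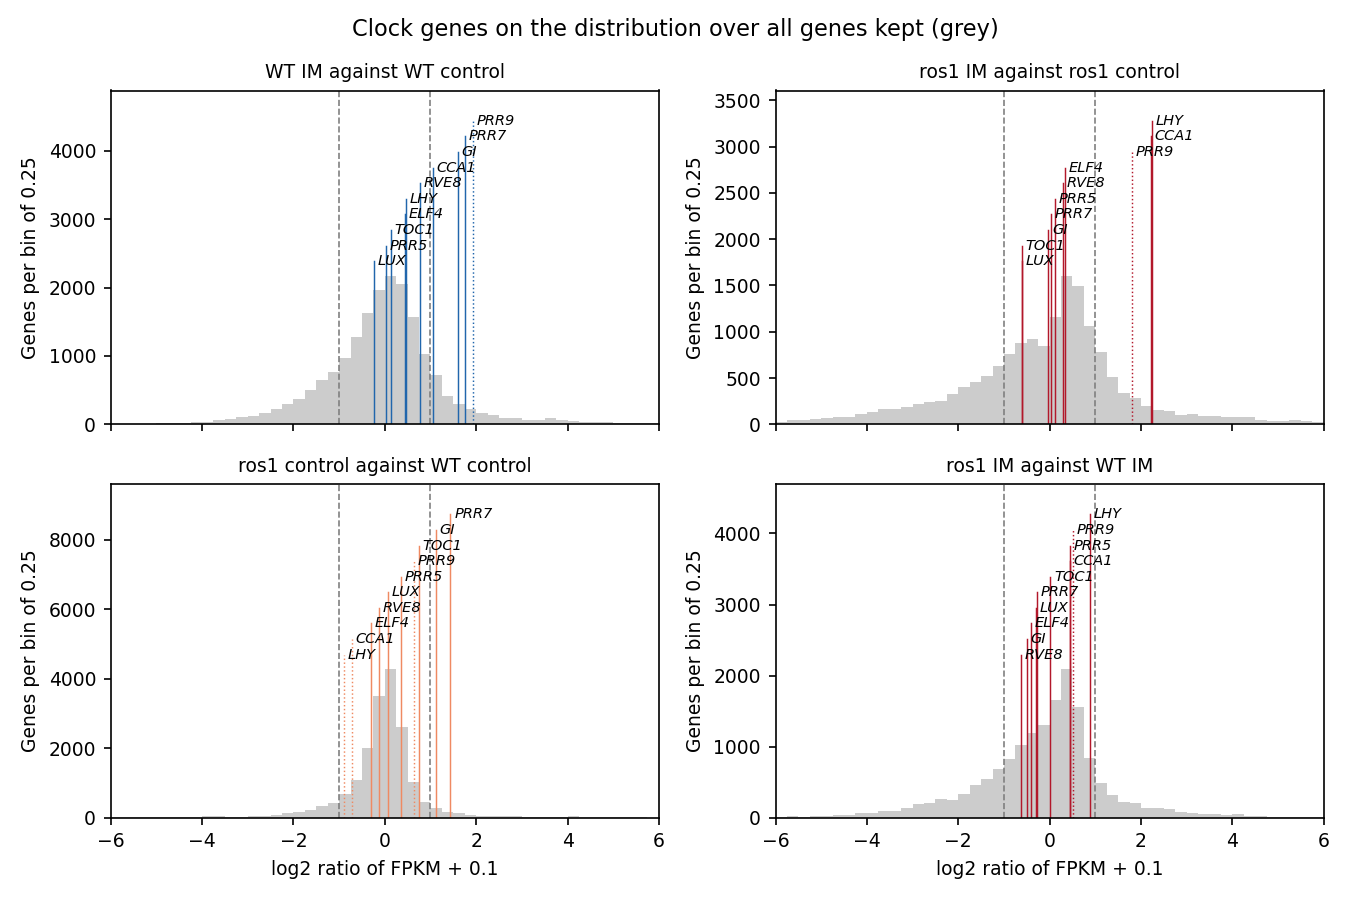
Distribution of log2 ratios over all genes kept in each comparison (grey bars, genes per bin of 0.25, genes beyond the axis not shown), with the 10 clock genes as labelled lines, dotted where the FPKM was below 1 in both groups. *LHY* and *CCA1* lie at 2.24 and 2.22 in *ros1* IM against *ros1* control, and the 10 genes lie within 1 of 0 in *ros1* IM against WT IM.

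The difference between genotypes in the response was taken as the log2 ratio with IM in *ros1* minus that in WT. It was 1.79 for *LHY* and 1.16 for *CCA1*, both higher in *ros1*, and -1.71 for *PRR7* and -1.62 for *GI*, both lower. Of the 15713 genes with both responses, 8.67% were past 2-fold higher and 17.9% lower, a chosen set as above. The dawn pair thus had the larger ratio in *ros1* and *PRR7* and *GI* the larger ratio in WT. *PRR7* and *GI* were already at 10.9 and 7.96 in *ros1* control, near their treated levels. The other genes were between -0.74 for *TOC1* and 0.11 for *PRR5*, with *PRR9* at -0.13. A pseudocount of 1 left 0 genes past 2-fold higher and 2 lower.

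**Figure D4:**
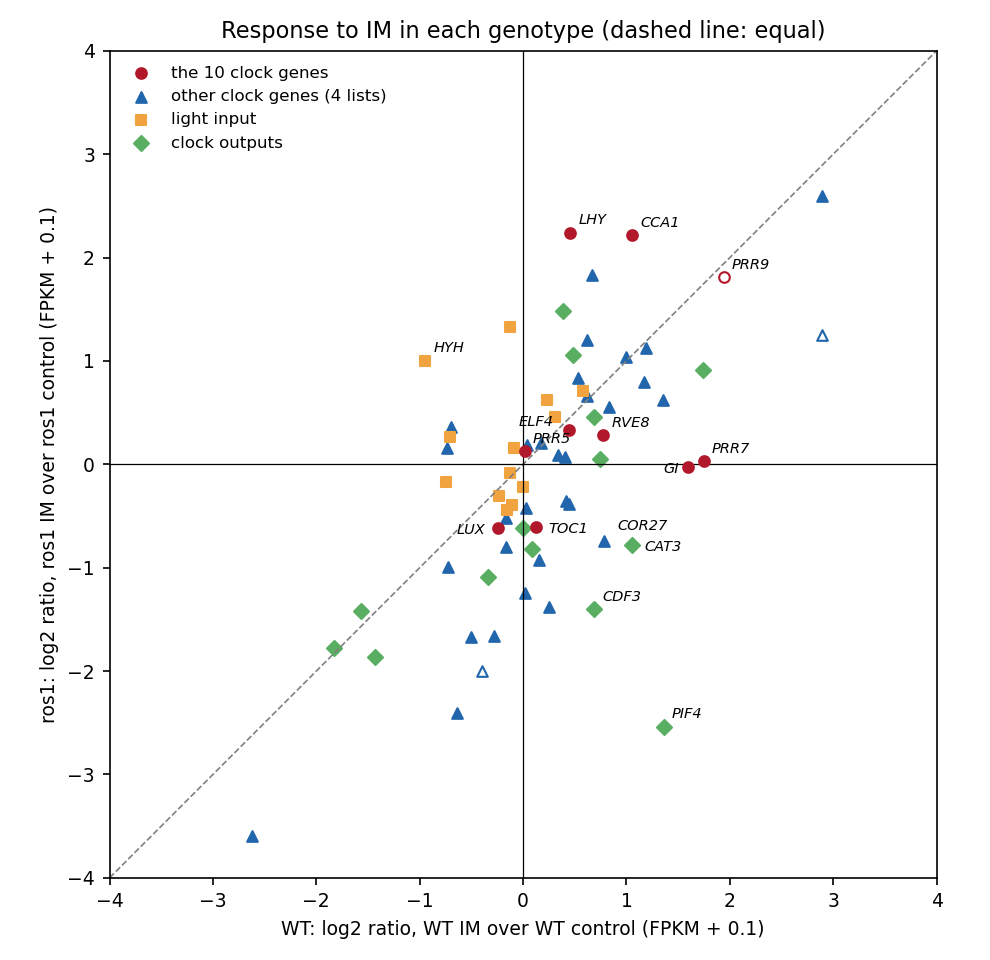
Response to IM in *ros1* (vertical axis) against that in WT (horizontal axis), each as a log2 ratio of FPKM + 0.1, for the 10 clock genes and for other clock, light input and output genes. Open symbols are genes below an FPKM of 1 in a comparison. *CCA1* and *LHY* lie above the dashed line of equal response and *PRR7* and *GI* lie far below it, near 0 on the vertical axis.

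The wider clock was described with 65 further genes in 6 lists. Over all of them, 8 were higher and 4 lower in WT IM against WT control, and 9 were higher and 13 lower in *ros1* IM against *ros1* control. In *ros1* control against WT control 2 were higher and 7 lower, and in *ros1* IM against WT IM 2 were higher and 12 lower. With IM in WT, these were 13.1% and 6.56% of the 61 genes above the minimum, against 14.4% and 18.4% of all genes. With IM in *ros1*, they were 15.5% and 22.4% of 58 genes, against 20.5% and 26.4% of the genes compared. Between the untreated groups they were 3.28% and 11.5% of 61 genes, against 6.3% and 10.3%, and between the treated groups 3.45% and 20.7% of 58 genes, against 13.1% and 22.6%. Most of these shares were near or below those over all genes, and the counts of single lists are to be read against the same shares. In the order of these comparisons, the median log2 ratios over genes with a value were 0.16, -0.09, 0.08 and -0.33. The genes named below had the largest ratios of their list.

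Of 7 further MYB-like factors of the CCA1 and RVE8 family, 3 were higher and 0 lower in WT IM against WT control, and 1 higher and 2 lower in *ros1* IM against *ros1* control. *RVE2* (AT5G37260) had an FPKM of 19.4 in *ros1* IM, 103 in *ros1* control, 40.4 in WT IM and 63.1 in WT control, lower with IM by 5.31-fold in *ros1*. *ASG4* (AT1G01520) had 0.513 in *ros1* IM, 0.157 in *ros1* control, 5.84 in WT IM and 0.698 in WT control. AT5G52660, a homeodomain-like protein gene, was higher with IM in both genotypes, at 16.2 in *ros1* IM, 7.36 in *ros1* control, 14.2 in WT IM and 6.18 in WT control. *EPR1* (AT1G18330) had 0.329 in *ros1* IM, 1.61 in *ros1* control, 0.591 in WT IM and 0.811 in WT control. *RVE2* and *EPR1* had their highest level in *ros1* control, where *CCA1* and *LHY* had their lowest. *ASG4*, *RVE1* (AT5G17300) and *RVE8* were also lowest in *ros1* control, so the family had no common order.

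Of 11 further repressors and evening complex genes, 1 was higher and 1 lower in WT IM against WT control, and 2 were higher and 3 lower in *ros1* IM against *ros1* control. *CHE* (AT5G08330), a TCP factor that represses *CCA1*, had an FPKM of 5.30 in *ros1* IM, 64.9 in *ros1* control, 13.9 in WT IM and 86.1 in WT control. It was 12.0-fold lower with IM in *ros1* and 6.14-fold lower in WT. *ELF4-L1* (AT2G29950), a relative of *ELF4*, went the opposite way, with 7.27 in *ros1* IM, 1.12 in *ros1* control, 6.47 in WT IM and 0.782 in WT control. *PRR3* (AT5G60100), which encodes a partner of TOC1, had 13.6 in *ros1* IM, 43.1 in *ros1* control, 20.1 in WT IM and 24.3 in WT control, and like *TOC1* it was highest in *ros1* control. *JMJD5* (AT3G20810), a histone demethylase gene of the evening, had 37.9 in *ros1* IM, 121 in *ros1* control, 80.6 in WT IM and 114 in WT control.

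Among 8 genes of LNK coactivators, LWD proteins and their TCP partners, 1 was higher and 0 lower with IM in WT, and 1 higher and 1 lower in *ros1*. *LNK1* (AT5G64170), whose protein works with RVE8, had an FPKM of 3.18 in *ros1* IM, 2.04 in *ros1* control, 6.59 in WT IM and 2.52 in WT control. *RVE8* was also highest in WT IM. *LNK3* (AT3G12320) had 1.37 in *ros1* IM, 0.314 in *ros1* control, 1.49 in WT IM and 0.905 in WT control. *TCP22* (AT1G72010) had 15.3 in *ros1* IM, 36.5 in *ros1* control, 29.9 in WT IM and 29.5 in WT control.

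Of 10 genes of the ZTL family and of clock protein modifiers, 7 had a *ros1* IM value, and 1 was higher and 1 lower in *ros1* IM against *ros1* control. None of the 9 with a WT IM value was past 2-fold with IM in WT, and *ZTL* had no value in either treated group. *FKF1* (AT1G68050), a blue light receptor that acts with GI in flowering, had an FPKM of 10.4 in *ros1* IM, 27.3 in *ros1* control, 16.2 in WT IM and 13.6 in WT control. Its level and that of *TOC1* and *PRR3* were all highest in *ros1* control. Other genes of the clock were not, with *ELF4* lowest there and *GI* and *COR27* highest in WT IM. The share of all genes that were highest in *ros1* control was not counted. *SKIP* (AT1G77180), a splicing factor gene, had 150.1 in *ros1* IM, 65.0 in *ros1* control, 94.4 in WT IM and 61.3 in WT control. *PRMT5* (AT4G31120), an arginine methyltransferase gene, had 11.7 in *ros1* IM, 15.3 in *ros1* control, 24.8 in WT IM and 18.2 in WT control.

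Of 14 light receptors and regulators, 0 were past 2-fold with IM in WT, 2 were higher and 0 lower in *ros1*, and 2 were lower in *ros1* control against WT control. *HY5* (AT5G11260), a bZIP factor of light signalling, had an FPKM of 9.68 in *ros1* IM, 3.80 in *ros1* control, 13.8 in WT IM and 15.0 in WT control. *CRY2* (AT1G04400), a blue light receptor, had 32.1 in *ros1* IM, 28.8 in *ros1* control, 60.5 in WT IM and 64.3 in WT control, with both *ros1* groups below both WT groups. *HYH* (AT3G17609), the close relative of *HY5*, had 30.0 in *ros1* IM, 14.9 in *ros1* control, 14.6 in WT IM and 28.2 in WT control. The 5 phytochrome genes were within 2-fold in all 4 comparisons.

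Of 15 clock outputs, 3 were higher and 3 lower with IM in WT, and 2 were higher and 6 lower in *ros1*. In *ros1* IM against WT IM, 0 were higher and 6 lower of 14 with a value, or 42.9% lower, against 22.6% of the genes compared, which the authors' tests had chosen. *CO* (AT5G15840), the promoter of flowering in long days, had an FPKM of 0.676 in *ros1* IM, 2.71 in *ros1* control, 2.68 in WT IM and 7.37 in WT control. Its treated group was the lower in both genotypes. *PIF4* (AT2G43010), a bHLH factor of growth, had 1.06 in *ros1* IM, 6.64 in *ros1* control, 6.76 in WT IM and 2.57 in WT control. *CDF3* (AT3G47500), a Dof factor that represses *CO*, had 0.809 in *ros1* IM, 2.30 in *ros1* control, 10.9 in WT IM and 6.74 in WT control. *BBX18* (AT2G21320), a B-box factor gene, had 1.14 in *ros1* IM, 2.09 in *ros1* control, 7.28 in WT IM and 6.86 in WT control. Both *CDF3* and *BBX18* were lower in *ros1* than in WT under both treatments.

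Genes with the pattern most like that of *CCA1* and of *TOC1* were sought among 13730 genes whose FPKM reached 1 in every group, by the distance between log2 levels centred on their mean. The 10 clock genes were not counted as neighbours, and all candidates needed a *ros1* IM value, so they are a chosen set as above. Over 4 pooled values this likeness is a description of few points. Nearest to *CCA1* was AT1G72900, at a distance of 0.15, with an FPKM of 65.3 in *ros1* IM, 13.2 in *ros1* control, 42.7 in WT IM and 20.1 in WT control. AT5G05365 followed at 0.16 and AT5G57060 at 0.22. Nearest to *TOC1* was *KTF1* (AT5G04290), which encodes a factor of RNA-directed DNA methylation, at 0.03, with 10.8 in *ros1* IM, 16.9 in *ros1* control, 10.7 in WT IM and 9.86 in WT control. AT1G70250 came next at 0.08 and *Tic22-III* (AT3G23710), of the chloroplast import machinery, at 0.10.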

How the data were processed

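FastQC 0.10.1 for read quality, TopHat2 with Bowtie2, Cufflinks and the TAIR10 genome are named in the submitters' processing notes. The authors deposited FPKM values, 1 per gene and group, pooled by Cuffdiff over the 2 libraries. The tables give no depth, and the read totals of the study were not used here. The paper reports that a smaller share of reads aligned in *ros1* than in wild type. The part of this in differences between genotypes was not tested. The fold changes, test statistics, p-values and q-values of the authors' own comparisons were not used, and the tables that list genes by comparison hold genes those tests selected. Values were read from 7 tables, and the 157256 repeated values of a gene and group were all equal. The remaining 26 sheets were not used, and 5 of their 109919 gene entries held other values. Coordinates are those of the files, made 1-based. The start of 11426 of the 31416 genes matched to TAIR10.1 was the same. No other gene of RefSeq TAIR10.1 overlaps the 10.

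Log2 ratios of FPKM + 0.1, counts past 2-fold at an FPKM of at least 1 in either group, and profile distances were computed in Python 3.11.15 with numpy 2.4.6 and tested on simulated data. Named are the 10 genes, up to 4 genes per further list with the largest ratio past 2-fold in any comparison, the 3 genes nearest to *CCA1* and to *TOC1*, marker genes, and promoter sites. The genes, lists and motifs were chosen with earlier results of these data known, and the search for LUX-binding sites and the window of 500 bases were chosen after the values were seen. Alternatives were a pseudocount of 1, other filters and thresholds, and centring. The library kit does not mark strand.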

Additional observations from a re-analysis of the deposited data

Results flagged for a closer look

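In 5 genes of the wider clock the response to IM pointed opposite ways in the genotypes, past 1.5-fold in each, and the difference was not tested because each group has 1 pooled value. *PIF4* had a log2 ratio of -2.54 in *ros1* and 1.36 in WT, a difference of -3.90. *CDF3* had -1.40 in *ros1* and 0.69 in WT, a difference of -2.09. *CAT3* (AT1G20620), a catalase gene with an evening rhythm, had -0.78 in *ros1* and 1.05 in WT, a difference of -1.83, at an FPKM of 790.3 in *ros1* IM, 1359 in *ros1* control, 2397 in WT IM and 1159 in WT control. *COR27* (AT5G42900), a repressor of clock genes, had -0.74 in *ros1* and 0.79 in WT, a difference of -1.53, at an FPKM of 27.3 in *ros1* IM, 45.6 in *ros1* control, 49.7 in WT IM and 28.8 in WT control. *HYH* was the one that pointed up in *ros1*, with 1.00 in *ros1* and -0.94 in WT, a difference of 1.95. These are 5 of the 57 further genes with both responses, while 0 of the 9 clock genes with both did so and 2.14% of all 15713 genes did.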

How the results depend on the processing

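Of the counts of clock genes past the threshold under the alternatives, 51 stayed within 1.5 times the reported count and 11 did not. Most of the 51 were counts of 0 that stayed 0, so they say little about the counts above 0. Of the log2 ratios of single genes, 164 stayed within 1.5-fold, 2 moved further and 0 changed sign among genes past the threshold. The filters cannot change a log2 ratio and no centring shift reached 1.5-fold, so only the pseudocount could move one that far. A 4-fold threshold left 0 genes higher in WT IM against WT control, 0 higher in *ros1* control against WT control, and 0 higher and 0 lower for the difference between genotypes. A 1.5-fold threshold gave 2 lower in *ros1* IM against *ros1* control, and 1 higher and 1 lower in *ros1* IM against WT IM. A pseudocount of 1 gave 1 higher in *ros1* IM against *ros1* control, 1 higher in *ros1* control against WT control and 0 higher for the difference between genotypes. With a minimum FPKM of 1 in each of the groups compared, 0 were higher in *ros1* IM against *ros1* control, since this removes *CCA1* and *LHY*. No paired analysis was possible because the tables hold 1 pooled value per group, and for the same reason leaving out a library could not be run. The log2 ratio of *CCA1* in WT IM against WT control was 0.49 with a pseudocount of 1, no longer past 2-fold. The counts behind the low levels of *CCA1*, *LHY* and *PRR9* are not in the tables used, so no counting error can be given for them.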

Other observations

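*RVE4* (AT5G02840), a MYB-like activator close to *RVE8*, lies 6.73 kb from *PRR7* on chromosome 5. It had an FPKM of 13.7 in *ros1* IM, 27.4 in *ros1* control, 18.7 in WT IM and 31.0 in WT control, lower with IM in both genotypes at log2 ratios of -0.997 in *ros1* and -0.729 in WT. *PRR7* had its lowest level in WT control, where *RVE4* had its highest. *GRP7* (AT2G21660), an RNA-binding protein gene of the evening, had 3092 in *ros1* IM, 4731 in *ros1* control, 3428 in WT IM and 3429 in WT control. Like *TOC1*, it was highest in *ros1* control, where *ELF4* was lowest. Both genes were chosen after their values were seen.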
